A study of Mus musculus with 15 samples.

Results

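Fgf5, Otx2, Pou3f1, Zic2, Zic5, Foxd3, Grhl2 and Sall2 are genes of the formative and primed epiblast. They were taken by gene symbol and are 8 of the 23412 genes counted, and all 8 passed the filter on low counts that left 14508 genes for testing. Polyadenylated RNA was sequenced from male v6.5 mouse embryonic stem cells (mESCs), a line of pluripotent cells, in 15 libraries. The study asked how far STAG1 and STAG2, alternative subunits of cohesin, do the same work in gene expression. Wild-type cells, Stag1-/- cells and Stag2-/- cells received siGLO, a control siRNA (wild-type siGLO, Stag1-/- siGLO and Stag2-/- siGLO), and wild-type and Stag2-/- cells received an siRNA against Stag1 (wild-type siStag1 and Stag2-/- siStag1), with 3 libraries in each of the 5 conditions. Every well was given 50 nM siRNA and harvested 48 h later. Each knockout is 1 CRISPR clone, so that the clone and the genotype cannot be told apart. The study calls its RNA-seq replicates of wild-type and knockout cells biological but does not say how they were kept apart in culture, so the p-values measure the spread between these libraries, which may in part be technical.

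Naive mESCs resemble the epiblast before implantation. On their way to lineage commitment, pluripotent cells pass through a formative state and then a primed state, in which naive factors such as Tfcp2l1 and Tbx3 go down and transcription factors such as Otx2 and Pou3f1, together with the growth factor Fgf5, come up. Cohesin holds DNA in loops, and each complex carries either STAG1 or STAG2.

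Gene counts came to between 14982560 and 19070126 per library. Levels are given as normalized counts, which are counts scaled by TMM (trimmed mean of M values) library size to a common depth, and 3 counts correspond to between 2.71 and 3.50 normalized counts. Fold changes and p-values are from edgeR's quasi-likelihood test over all 15 libraries, with adjustment over all genes tested, and a gene is called where the adjusted p is under 0.1. Stag1 RNA fell in both siStag1 conditions, with log2 fold changes of -2.28 in wild-type and -1.63 in Stag2-/- cells against wild-type siGLO, and Stag2 RNA fell in Stag2-/- siGLO (-1.75) and Stag2-/- siStag1 (-1.36) without reaching 0. Stag2 RNA was 663, 739 and 675 in Stag2-/- siGLO and 851, 931 and 940.5 in Stag2-/- siStag1, higher in the latter (log2 fold change 0.39, SE 0.12, adjusted p = 0.0808), against 2329, 2334 and 2329 in wild-type siGLO. Stag1 RNA in Stag1-/- siGLO was 1826, 2368 and 1875 against 2288, 2137 and 2012 in wild-type siGLO and was not called (log2 fold change -0.085, SE 0.13, adjusted p = 0.728). That clone carries a small in-frame deletion, which a count over the whole gene does not check. The paper reports that STAG1 protein could not be detected in it, and that western blots showed loss of the targeted protein in the knockout lines. Pou5f1, Sox2 and the other 4 general pluripotency genes listed were detected in every condition. In bulk RNA, fewer cells of a type and less RNA per cell cannot be told apart.

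The genes lie on 4 chromosomes of mm10. Fgf5 is at chr5:98254184-98277030, Pou3f1 at chr4:124656807-124660655 and Foxd3 at chr4:99656299-99658622, Grhl2 at chr15:37233036-37363569, and Otx2 (chr14:48657677-48673819), Sall2 (chr14:52311172-52328762), Zic5 (chr14:122456795-122465677) and Zic2 (chr14:122475435-122479852) share chromosome 14. Zic5 and Zic2 are transcribed away from each other from starts 9758 bp apart, and 2610035F20Rik, a noncoding transcript (chr14:122470284-122475199, minus strand), lies between them and starts 236 bp from the Zic2 start. The 250 bases upstream of a RefSeq start (GRCm38.p6) are shown for Fgf5, the gene with the largest fold change, for Zic5, whose window lies between the starts of Zic5 and Zic2 except for 19 bases within the Zic5 exon, and for Sall2, the gene called between both Stag2-/- conditions without the replicate block. That call was lost in some of the other fits. Sall2 has 2 windows, of which the one shown belongs to a start inside the gene span and the other (chr14:52328671-52328920), at the outer end of the span and with 92 bases in Sall2 exons, is not shown. Each shown is printed 5′ to 3′ on the gene's own strand.
Fgf5, chr5:98253934-98254183, plus strand: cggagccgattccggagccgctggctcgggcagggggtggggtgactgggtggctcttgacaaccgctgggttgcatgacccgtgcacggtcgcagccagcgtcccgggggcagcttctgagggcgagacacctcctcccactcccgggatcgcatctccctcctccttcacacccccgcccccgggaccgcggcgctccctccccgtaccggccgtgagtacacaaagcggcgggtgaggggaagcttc
Zic5, chr14:122465659-122465908, minus strand: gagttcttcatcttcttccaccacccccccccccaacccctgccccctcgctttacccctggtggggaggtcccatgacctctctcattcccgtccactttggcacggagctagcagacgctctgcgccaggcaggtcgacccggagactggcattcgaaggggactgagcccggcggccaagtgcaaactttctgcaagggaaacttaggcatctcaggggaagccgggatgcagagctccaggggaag
Sall2, chr14:52316324-52316573, minus strand: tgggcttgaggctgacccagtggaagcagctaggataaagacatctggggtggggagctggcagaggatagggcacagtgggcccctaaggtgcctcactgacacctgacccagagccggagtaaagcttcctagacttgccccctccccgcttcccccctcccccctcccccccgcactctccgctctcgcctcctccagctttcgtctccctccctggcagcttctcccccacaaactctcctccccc
The windows were searched on both strands for an octamer bound by POU factors (ATGCAAAT), an OTX2 motif (GGATTA), a GRHL2 motif (AACCNGTT) and the CTCF core motif. Over 32851 RefSeq windows of the same length, 1.60%, 6.25%, 1.79% and 2.07% held them. None was found in the 3 windows above, the other Sall2 window or the Foxd3 window, and no letters are therefore in capitals. Of 4 Otx2 windows 1 held GGATTA, and it lies wholly within Otx2 exons. Of the 8 genes 5 had an entry.

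Scaled by exon length, Foxd3 and Zic2 stood highest in wild-type siGLO cells, at 182 ± 78.6 and 172 ± 45.3 normalized counts per kb (mean ± SD, n = 3). Pou3f1 followed at 91.0 ± 7.15, Otx2 at 64.1 ± 13.6, Zic5 at 60.0 ± 12.4, Grhl2 at 46.7 ± 12.2 and Sall2 at 40.8 ± 10.7. Fgf5 was far below all of these, at 3.89 ± 0.714 per kb. In Stag2-/- siGLO the same scale put Zic2 first, at 798 ± 200.2, and Sall2 at 186 ± 56.6, above Otx2 at 122 ± 1.47 and Zic5 at 133 ± 4.17.

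Against wild-type siGLO, 6 of the 8 genes were higher in Stag2-/- siGLO (Fgf5, Otx2, Pou3f1, Zic2, Zic5 and Sall2), 3 of 8 in Stag1-/- siGLO (Otx2, Pou3f1 and Grhl2), none in wild-type siStag1, and 7 of 8 in Stag2-/- siStag1, in which Foxd3 alone was not called. None of the 8 was called lower. Of all genes tested, 13.9% were called higher in Stag2-/- siGLO, 10.1% in Stag1-/- siGLO, 0.103% in wild-type siStag1 and 22.6% in Stag2-/- siStag1. In the same order 14.4%, 9.93%, 0.145% and 21.3% were called lower, and 28.3%, 20%, 0.248% and 43.9% in either direction. The libraries of 6, 2, 1 and 6 of the 8 genes did not overlap those of wild-type siGLO, beside 35.7%, 31.7%, 15.5% and 47.3% of all genes tested. With the replicate block the counts called were 8, 3, 1 and 8, beside 39.4%, 30.6%, 1.63% and 53.7%; in the last comparison the numbers do not pair the libraries. The median log2 fold change of the 8 genes was 1.42 in Stag2-/- siGLO, 0.0096 in Stag1-/- siGLO, 0.31 in wild-type siStag1 and 1.68 in Stag2-/- siStag1, beside medians of all genes tested of 0.0070, -0.013, -0.0017 and 0.0055. These 4 comparisons share the wild-type siGLO libraries.

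**Figure D1:**
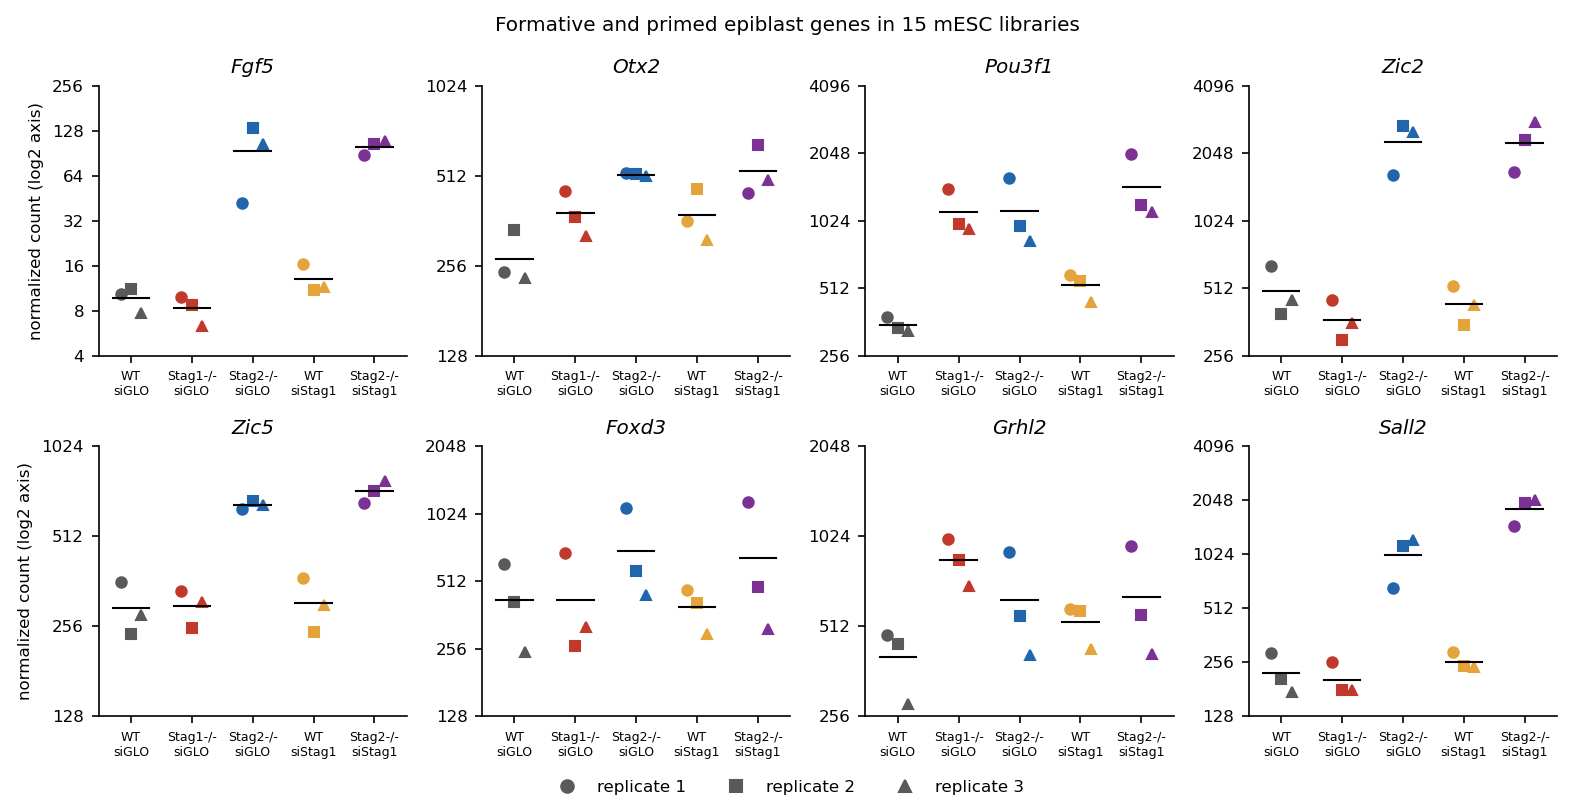
Normalized counts of the 8 genes (log2 axis) in each library of the 5 conditions. Symbols mark the replicate number and lines the mean of 3 libraries. Fgf5, Zic2, Zic5 and Sall2 in both Stag2-/- conditions lie above every library of the other 3 conditions, whereas Pou3f1 is raised in Stag1-/- siGLO as well.

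The only secreted factor of the set, Fgf5, a growth factor that marks the epiblast after implantation, had low counts in the 3 conditions without Stag2 loss. The wild-type siGLO libraries held 10.3, 11.2 and 7.74 normalized counts (replicates 1, 2 and 3, as in all such lists), and Stag2-/- siGLO held 42.3, 134 and 105. Every Stag2-/- library was above every wild-type one, and Stag2-/- replicate 1 was the lowest of its condition. Fgf5 was 9.50-fold higher in Stag2-/- siGLO (log2 fold change 3.25, SE 0.38, adjusted p = 3.51e-05). Stag1-/- siGLO, at 9.84, 8.76 and 6.33, overlapped wild-type siGLO and was not called (log2 fold change -0.23, SE 0.47, adjusted p = 0.804).

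Zic2 and Zic5 are zinc finger transcription factors of the neural plate and epiblast, encoded next to each other with 2610035F20Rik between them. Zic2 was 642, 391 and 454 in wild-type siGLO and 1639, 2713 and 2539 in Stag2-/- siGLO. The libraries did not overlap, and Zic2 was 4.63-fold higher (log2 fold change 2.21, SE 0.24, adjusted p = 1.39e-05). Zic5 went from 360.0, 241 and 279 to 631, 671 and 652, with a narrow spread in Stag2-/- siGLO and no overlap (log2 fold change 1.15, SE 0.16, adjusted p = 0.000155). In Stag1-/- siGLO neither was called, with Zic2 at 452, 302 and 359.8 (log2 fold change -0.42, SE 0.24, adjusted p = 0.275) and Zic5 at 337, 253 and 308 (log2 fold change 0.028, SE 0.16, adjusted p = 0.939). Both genes overlapped wild-type siGLO there.

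Sall2, a zinc finger factor of the spalt family, was 286, 205 and 173 in wild-type siGLO and 660.2, 1139 and 1234 in Stag2-/- siGLO, again with replicate 1 the lowest of the Stag2-/- libraries. It was 4.56-fold higher (log2 fold change 2.19, SE 0.23, adjusted p = 1.27e-05). In Stag1-/- siGLO it was 255, 178 and 179, which overlapped wild-type siGLO, and it was not called (log2 fold change -0.12, SE 0.24, adjusted p = 0.795).

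Otx2 and Pou3f1 are transcription factors that act early in the exit from naive pluripotency. Otx2 was 243, 337 and 232 in wild-type siGLO and 522, 519 and 509.9 in Stag2-/- siGLO, where the 3 libraries lay close together and above all wild-type ones (log2 fold change 0.93, SE 0.18, adjusted p = 0.00226). In Stag1-/- siGLO it was 456, 374 and 322, which overlapped wild-type siGLO. That difference was called (log2 fold change 0.50, SE 0.18, adjusted p = 0.0805), but the call was lost when wild-type replicate 1 or 3 or Stag1-/- replicate 1 or 2 was left out, with adjusted p = 0.129 to 0.304. Pou3f1 was 381, 341 and 329 in wild-type siGLO, 1419, 990.0 and 939 in Stag1-/- siGLO and 1583, 967 and 835 in Stag2-/- siGLO. Both knockouts stood wholly above wild-type cells, 3.18-fold in Stag1-/- (log2 fold change 1.67, SE 0.25, adjusted p = 0.000313) and 3.22-fold in Stag2-/- (log2 fold change 1.69, SE 0.25, adjusted p = 0.000253).

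Grhl2, an epithelial transcription factor active at enhancers in the formative state, was highest in Stag1-/- siGLO, at 1004, 854 and 699 against 479, 445 and 282 in wild-type siGLO. No libraries overlapped (log2 fold change 1.08, SE 0.30, adjusted p = 0.0237). Leaving out all libraries of replicate number 2 ended that call (adjusted p = 0.237, log2 fold change 1.16). In Stag2-/- siGLO Grhl2 was 906, 555 and 411, which overlapped wild-type siGLO (log2 fold change 0.63, SE 0.30, adjusted p = 0.148), and Foxd3, a forkhead factor of the naive to primed transition, was 1081, 569 and 444 against 611, 412 and 246 (log2 fold change 0.72, SE 0.46, adjusted p = 0.288). With the replicate number as a block both were called higher in Stag2-/- siGLO (adjusted p = 0.00442 for Grhl2 and 0.01 for Foxd3), which brought all 8 genes past the threshold beside 39.4% of genes tested. Grhl2 was also called without Stag2-/- siGLO replicate 3 (log2 fold change 0.86, adjusted p = 0.0654) and Foxd3 without all libraries of replicate number 1 (0.61, 0.0784). Foxd3 in Stag1-/- siGLO, at 680.1, 264 and 318, was not called (log2 fold change -0.0093, SE 0.46, adjusted p = 0.994).

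**Figure D2:**
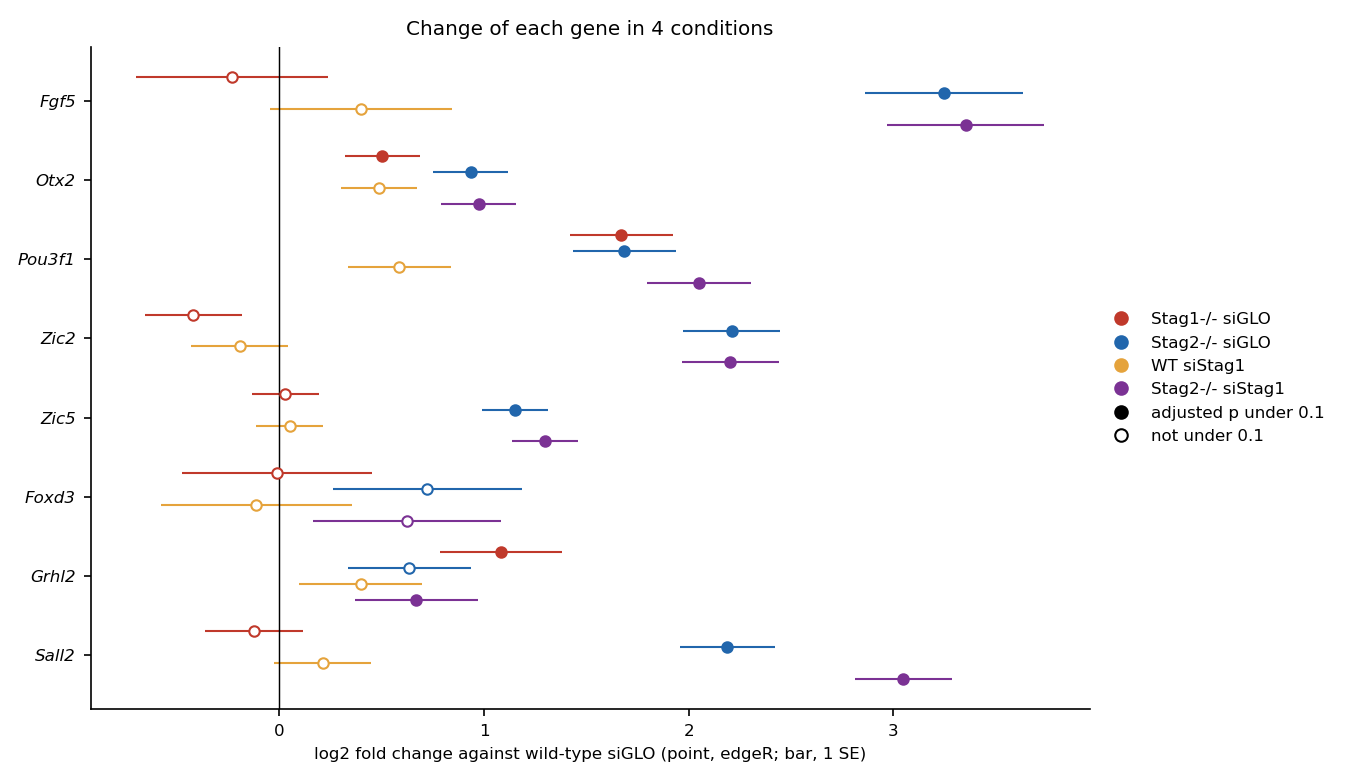
Log2 fold change of each gene against wild-type siGLO in 4 conditions (points, edgeR; bars, 1 SE), filled where the adjusted p is under 0.1. Fgf5 lies above 3 in both Stag2-/- conditions and near 0 in Stag1-/- siGLO, while the Pou3f1 points of both knockouts lie within 1 SE of each other.

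The replicate number moved with several of the genes. Pou3f1, Foxd3 and Grhl2 were highest in replicate 1 in all 5 conditions, and Pou3f1 and Grhl2 were lowest in replicate 3 in all 5. Compared within a number, the log2 ratio of Stag2-/- siGLO over wild-type siGLO was 0.82, 0.47 and 0.85 for Foxd3 and 0.92, 0.32 and 0.54 for Grhl2, positive in each. For Zic2 it was 1.35, 2.79 and 2.48, for Sall2 1.21, 2.47 and 2.83 and for Zic5 0.81, 1.48 and 1.23, smallest in replicate 1. Fgf5 had 2.04, 3.58 and 3.75 and was likewise smallest there. The ratio of Stag1-/- siGLO over wild-type siGLO was 1.90, 1.54 and 1.51 for Pou3f1 and 1.07, 0.94 and 1.31 for Grhl2.

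**Figure D3:**
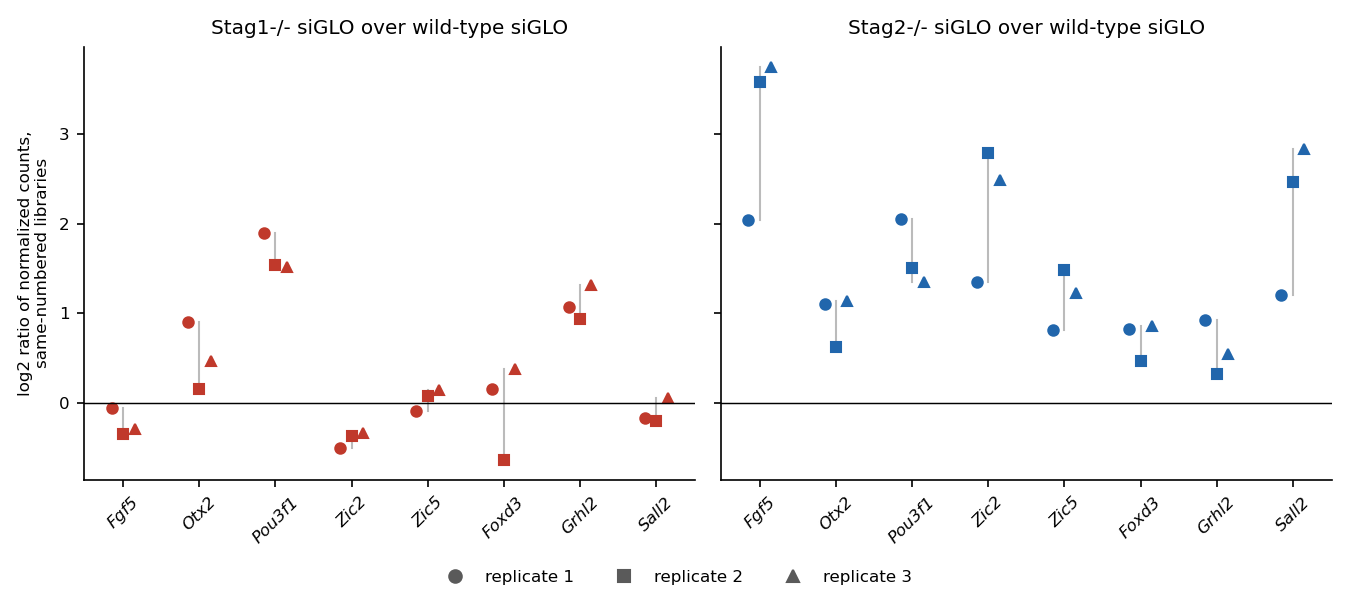
Log2 ratio of normalized counts of each knockout over wild-type siGLO between libraries of the same replicate number. In Stag2-/- the ratios of all 8 genes are above 0 in all 3 numbers, and Fgf5, Zic2, Zic5 and Sall2 have their smallest ratio in replicate 1.

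Set directly against each other, the knockouts differed in 4 of the 8 genes, all lower in Stag1-/- siGLO, where 25.7% of genes tested were called in either direction, 12.9% lower and 12.7% higher. These were Fgf5 (log2 fold change -3.48, SE 0.39, adjusted p = 2.54e-05), Zic2 (log2 fold change -2.63, SE 0.24, adjusted p = 5.26e-06), Sall2 (log2 fold change -2.31, SE 0.23, adjusted p = 9.62e-06) and Zic5 (log2 fold change -1.12, SE 0.16, adjusted p = 0.000213). Otx2 was not called (log2 fold change -0.43, SE 0.18, adjusted p = 0.110), although its libraries did not overlap, which held for 5 of the 8 genes and 31% of all genes. Pou3f1 was close to equal in both knockouts, with a log2 difference of -0.016 (SE 0.24, adjusted p = 0.974). With the replicate block 7 of the 8 were called beside 37.3% of genes tested, which added Otx2 (adjusted p = 0.0273) and Foxd3 (0.00937) as lower in Stag1-/- siGLO and Grhl2 as higher (0.0126, log2 fold change 0.50). Otx2 was also called by DESeq2 (adjusted p = 0.0942), when only the libraries compared were fitted (0.0846) and without Stag1-/- siGLO replicate 1 (0.0698).

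Knockdown of Stag1 in wild-type cells called none of the 8 genes by edgeR, at a total of 36 genes called of 14508. The unadjusted p was under 0.05 for Otx2 and Pou3f1, and for 922 of all 14508 genes. DESeq2 called none of the 8 either. Pou3f1 was 584, 550.0 and 446, above all 3 wild-type siGLO libraries (log2 fold change 0.59, SE 0.25, adjusted p = 0.715). It was called with the replicate block (adjusted p = 0.0428), under which 1.63% of genes were called, and when only the 6 libraries compared were fitted (0.0884). Otx2 was 362, 462 and 311 (log2 fold change 0.49, SE 0.18, adjusted p = 0.591). The other log2 fold changes were 0.40 for Fgf5, -0.19 for Zic2, 0.052 for Zic5, -0.11 for Foxd3, 0.40 for Grhl2 and 0.21 for Sall2.

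In Stag2-/- siStag1 cells, which carry the Stag2 knockout and have less Stag1 RNA, 7 of the genes were higher than in wild-type siGLO. Zic2 was 1691, 2346 and 2822 (log2 fold change 2.20, SE 0.24, adjusted p = 3.62e-06) and Zic5 660.4, 726 and 782 (log2 fold change 1.30, SE 0.16, adjusted p = 1.56e-05). Fgf5 was 87.7, 104 and 110.2 (log2 fold change 3.35, SE 0.38, adjusted p = 7.01e-06). Each of these was above every wild-type siGLO library. Otx2 was 447, 651 and 498 (log2 fold change 0.98, SE 0.18, adjusted p = 0.000653) and Pou3f1 2041, 1201 and 1117 (log2 fold change 2.05, SE 0.25, adjusted p = 1.46e-05). Grhl2, at 948, 555 and 414, overlapped wild-type siGLO and passed only narrowly (log2 fold change 0.67, SE 0.30, adjusted p = 0.0933), and the call was lost with DESeq2 (adjusted p = 0.14), with only the 6 libraries compared (0.112) and in 4 of 6 fits that left out 1 library: wild-type siGLO replicate 2 or 3, or Stag2-/- siStag1 replicate 1 or 2 (adjusted p = 0.102 to 0.489). Foxd3, at 1160.1, 484 and 312, was not called (log2 fold change 0.63, SE 0.46, adjusted p = 0.309), and its log2 fold change was -0.089 without Stag2-/- siStag1 replicate 1.

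Sall2 was the gene of the set that differed between Stag2-/- siStag1 and Stag2-/- siGLO, where 6.37% of all genes were called, 2.98% higher and 3.39% lower. Its libraries did not overlap, as in 19.3% of all genes. It was 1473, 1986 and 2055 in Stag2-/- siStag1, above every Stag2-/- siGLO library and 1.82-fold higher on average (log2 fold change 0.86, SE 0.21, adjusted p = 0.0338). The call was lost without Stag2-/- siStag1 replicate 2 (adjusted p = 0.116) or 3 (0.141), and when only the 6 libraries compared were fitted (0.184), with log2 fold changes of 0.80, 0.77 and 0.85. Pou3f1 was called with the replicate block (log2 fold change 0.37, adjusted p = 0.0634), beside 14.1% of genes. The other log2 fold changes lay near 0, at 0.11 for Fgf5, 0.041 for Otx2, -0.0068 for Zic2, 0.15 for Zic5, -0.10 for Foxd3 and 0.036 for Grhl2.

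Whether siStag1 acted differently in Stag2-/- than in wild-type cells was tested as a difference of both effects. Stag1 RNA itself had siStag1 log2 fold changes of -1.53 in Stag2-/- and -2.28 in wild-type cells. The difference of 0.75 (SE 0.19) was not called (adjusted p = 0.254) but was with the replicate block (0.0253), where the libraries share only a number. By edgeR none of the 8 genes and 0.159% of all genes were called (0.0207% higher and 0.138% lower), and DESeq2 called none of the 8. None of the 8 had an unadjusted p under 0.05, beside 842 of all 14508 genes. The log2 difference was 0.65 for Sall2 (SE 0.32, adjusted p = 0.889) and -0.45 for Otx2 (SE 0.26, adjusted p = 0.924). It was -0.29 for Fgf5, -0.22 for Pou3f1, 0.19 for Zic2, 0.10 for Zic5, 0.015 for Foxd3 and -0.36 for Grhl2.

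By mean level, the conditions fell into the same order of blocks for Fgf5, Zic2, Zic5 and Sall2. Wild-type siGLO, Stag1-/- siGLO and wild-type siStag1 formed a low block whose neighbours overlapped, with a gap to the Stag2-/- conditions. These overlapped each other for Fgf5, Zic2 and Zic5 and did not for Sall2. For Otx2 the 3 lower conditions overlapped in turn and lay below Stag2-/- siGLO, but the lowest Stag2-/- siStag1 library was within the range of Stag1-/- siGLO. For Pou3f1, wild-type siGLO lay below wild-type siStag1, and this below a group of Stag1-/- siGLO, Stag2-/- siGLO and Stag2-/- siStag1 whose neighbours overlapped. For Foxd3 and Grhl2 every neighbouring pair of conditions overlapped.

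The other genes of the formative and primed states moved in part with these in the Stag2-/- conditions. Of 19 such genes, all tested, 11 were higher and 1 lower in Stag2-/- siGLO (median log2 fold change 0.72), 2 higher in Stag1-/- siGLO (0.11), none was called in wild-type siStag1 (0.13), and 12 were higher and 2 lower in Stag2-/- siStag1 (1.04). Of all genes tested, 13.9% were called higher and 14.4% lower in Stag2-/- siGLO, and 22.6% and 21.3% in Stag2-/- siStag1. In Stag1-/- siGLO 10.1% were called higher, and the 2 of 19 genes lie near that share. With the replicate block 11 of the 19 were higher and 4 lower in Stag2-/- siGLO, 4 higher and 1 lower in Stag1-/- siGLO, and 4 higher in wild-type siStag1. Beside these, the block called 39.4%, 30.6% and 1.63% of all genes in either direction. The 2 higher in Stag1-/- siGLO were Fgf15, a growth factor (log2 fold change 1.00, SE 0.17, adjusted p = 0.000879), and Dnmt3b, a de novo DNA methyltransferase (log2 fold change 0.89, SE 0.15, adjusted p = 0.000737). Fgf8 and Wnt8a, secreted signals of the epiblast, changed the most in Stag2-/- siGLO, with a wide spread. Fgf8 was 38.1, 525 and 339 against 13.1, 16.3 and 9.68 in wild-type siGLO (log2 fold change 4.52, SE 0.89, adjusted p = 0.00235). Wnt8a was 42.3, 361 and 33.8 against 5.61, 6.10 and 3.87 (log2 fold change 4.78, SE 0.86, adjusted p = 0.00123). Fgf8 was thus lowest in the Stag2-/- library in which Fgf5, Zic2 and Sall2 were also lowest, and Wnt8a highest in replicate 2. In Stag2-/- siStag1, Lef1, a transcription factor of WNT signalling, led with Fgf8 (log2 fold change 3.49, SE 0.28, adjusted p = 1.85e-07 for Lef1).

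Naive pluripotency genes went down in several of the conditions. Of 15 tested, 9 were lower and 2 higher in Stag2-/- siGLO, 6 lower and 1 higher in Stag1-/- siGLO, 2 lower in wild-type siStag1 and 13 lower in Stag2-/- siStag1, with medians of -0.68, -0.32, -0.42 and -1.95. Of all genes tested, 14.4%, 9.93%, 0.145% and 21.3% were called lower in the same order. With the replicate block 6 of the 15 were lower in wild-type siStag1. Tbx3, a T-box factor of naive cells, fell in Stag1-/- siGLO (log2 fold change -2.41) and in Stag2-/- siGLO (-1.28). Dppa3, another gene of the list, rose in Stag1-/- siGLO (log2 fold change 1.63, SE 0.18, adjusted p = 1.60e-05). In Stag2-/- siStag1, Tfcp2l1 (-3.46) and Prdm14, a repressor of FGF signalling (-4.01), fell the most. Between Stag2-/- siStag1 and Stag2-/- siGLO 14 of the 15 were lower (median -1.33), beside 3.39% of all genes. In that comparison 1 of the 8 formative and primed genes was called.

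**Figure D4:**
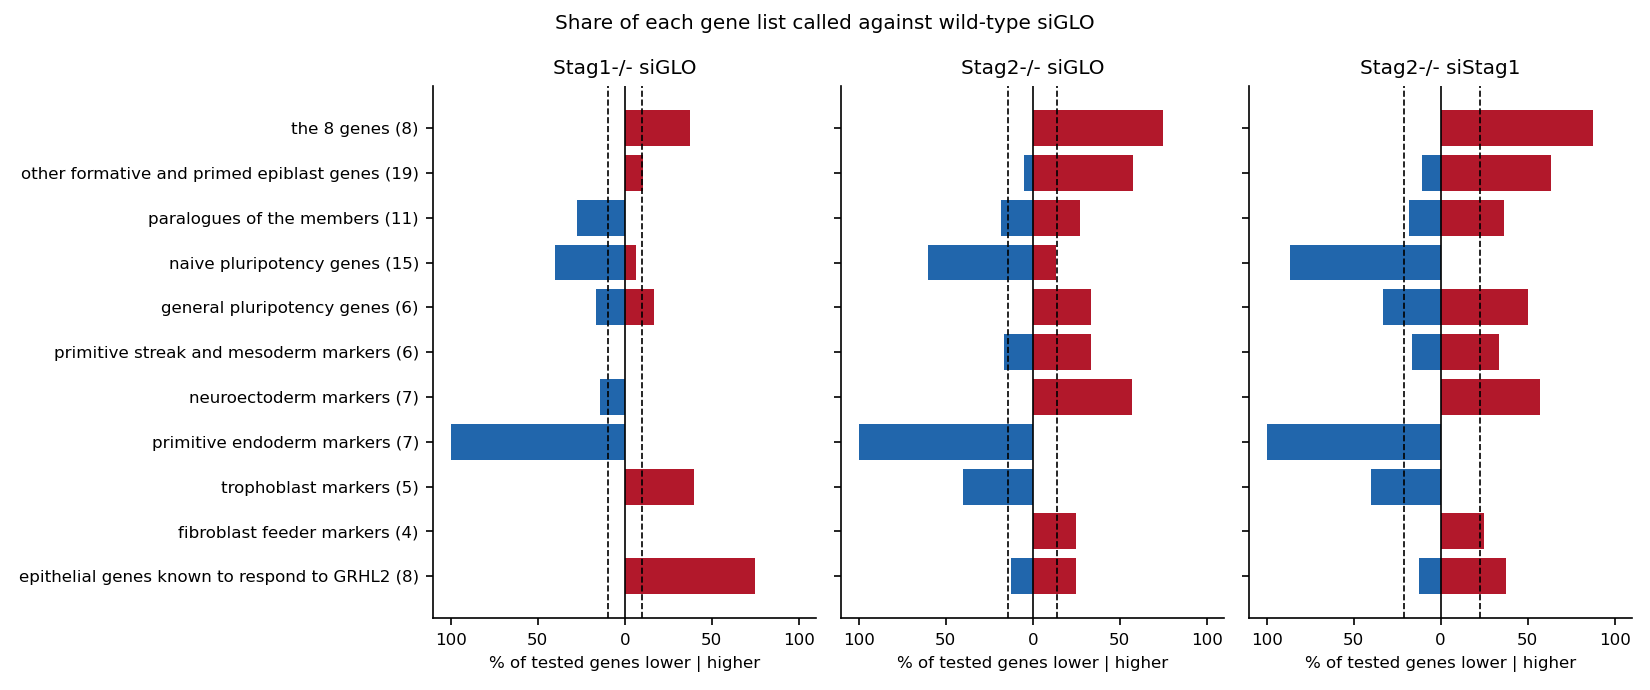
Share of the tested genes of each list called higher (right) or lower (left) than wild-type siGLO in 3 conditions, with the number tested in brackets. Dashed lines mark the shares over all 14508 genes tested. The 7 primitive endoderm markers are all lower in all 3, while the 8 genes are called in one direction only, higher.

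Markers of other cell types moved as well, and their part in the values above was not tested. Beside the counts below, 10.1% of all genes tested were called higher and 9.93% lower in Stag1-/- siGLO. The shares were 13.9% and 14.4% in Stag2-/- siGLO and 22.6% and 21.3% in Stag2-/- siStag1. All 7 primitive endoderm markers were lower in Stag1-/- siGLO, Stag2-/- siGLO and Stag2-/- siStag1 and none was called in wild-type siStag1, and their summed level was 4038 to 4441 in wild-type siGLO, 3949 to 4411 in wild-type siStag1, 339 to 544 in Stag1-/- siGLO, 733 to 1189 in Stag2-/- siGLO and 877 to 1158 in Stag2-/- siStag1. Of 7 neuroectoderm markers, 4 were higher in Stag2-/- siGLO, among them Pax6 (log2 fold change 2.71, SE 0.32, adjusted p = 3.70e-05), 1 was lower in Stag1-/- siGLO (Sox1, log2 fold change -2.90, SE 0.60, adjusted p = 0.00400) and 4 were higher in Stag2-/- siStag1. Their summed level in Stag2-/- siGLO was 2952, 4250.1 and 4573, lowest in replicate 1, against 2718, 1955 and 1919 in wild-type siGLO. Of 6 primitive streak and mesoderm markers tested of 8 listed, T and Wnt3 were higher and Eomes lower in both Stag2-/- conditions, and T was 80.4, 268 and 35.9 in Stag2-/- siGLO, highest in replicate 2. Of 5 trophoblast markers tested of 6, 2 were higher in Stag1-/- siGLO and 2 lower in each Stag2-/- condition. Fibroblast feeder markers, of which 4 of 7 were tested, summed to between 288 and 646 in every library, with Dcn and Lum at 0 in wild-type siGLO, and 1 of them (Col3a1) was higher in each Stag2-/- condition. Of the 6 general pluripotency genes, Lin28a was higher and Pou5f1 lower in Stag1-/- siGLO, Lin28a and Sall4 were higher in Stag2-/- siGLO, and 3 were higher and 2 lower in Stag2-/- siStag1. The Pou5f1 change in Stag1-/- siGLO was small (log2 fold change -0.35, SE 0.13, adjusted p = 0.0831). At a stricter threshold, the paper reports no significant change of Pou5f1, Sox2 or Nanog in either knockout. With the replicate block the counts called in Stag2-/- siGLO went from 3 to 5 for the streak markers (3 higher and 2 lower) and from 2 to 4 for the general pluripotency genes (3 higher and 1 lower), and that in Stag1-/- siGLO from 1 to 2 for the neuroectoderm markers (1 higher and 1 lower). It also called 1 streak marker higher and 1 feeder marker lower in Stag1-/- siGLO and 1 trophoblast marker lower in wild-type siStag1, where none was called without it.

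Of 8 epithelial genes tested that are known to respond to GRHL2, 6 were higher in Stag1-/- siGLO, beside 10.1% of all genes (median log2 fold change 0.85), including Cldn6 (log2 fold change 1.15, SE 0.14, adjusted p = 6.29e-05) and Cldn7 (log2 fold change 0.95, SE 0.26, adjusted p = 0.0232), which encode tight junction claudins. In Stag2-/- siGLO 2 were higher and 1 lower (median 0.25; 4 higher and 1 lower with the replicate block), in wild-type siStag1 none was called (0.21; 1 higher with the replicate block), and in Stag2-/- siStag1 3 were higher and 1 lower (0.33). Of all genes, 13.9% were called higher and 14.4% lower in Stag2-/- siGLO, and 22.6% and 21.3% in Stag2-/- siStag1. The list was chosen with earlier results of these data known, so that its counts beside these shares are a description and not a test. Directly between the knockouts, 5 of the 8 were higher in Stag1-/- siGLO, beside 12.7% of all genes, while Grhl2 itself had overlapping libraries there and was called only with the replicate block (adjusted p = 0.0126) or with libraries left out (0.0616 without Stag2-/- siGLO replicate 1 and 0.0322 without number 1), and not over all 15 libraries without the block (log2 fold change 0.45, SE 0.29, adjusted p = 0.311). Its log2 ratio within a number was 0.15, 0.62 and 0.77, higher in Stag1-/- siGLO in each.

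Paralogues of the 8 genes were called in both directions. Of 17 listed, 11 were tested, with 3 lower in Stag1-/- siGLO, 3 higher and 2 lower in Stag2-/- siGLO, none called in wild-type siStag1, and 4 higher and 2 lower in Stag2-/- siStag1. Of all genes tested, 9.93% were called lower in Stag1-/- siGLO, and 28.3% in either direction in Stag2-/- siGLO and 43.9% in Stag2-/- siStag1. With the replicate block 1 of the 11 was lower in wild-type siStag1, and 1 higher and 3 lower in Stag1-/- siGLO. Fgf4, the main FGF ligand of mESCs, fell in Stag1-/- siGLO (log2 fold change -0.42), Stag2-/- siGLO (-0.85) and Stag2-/- siStag1 (-1.95), while Sall3 was lower in Stag1-/- siGLO (log2 fold change -1.01, SE 0.33, adjusted p = 0.0553) and higher in Stag2-/- siGLO (log2 fold change 1.14, SE 0.31, adjusted p = 0.0179).

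Genes that start within 5 Mb were compared with each gene. Around Zic2 and Zic5 the median log2 fold change over 24 such genes was -0.016 in Stag2-/- siGLO, with 4 called higher and 3 lower, against 2.21 and 1.15 for the pair itself. The nearest of them, 2610035F20Rik, was higher too, by about as much as Zic2 (log2 fold change 2.29, SE 0.32, adjusted p = 0.000149). Its libraries held 88.8, 48.8 and 31.9 normalized counts in wild-type siGLO, 254, 296 and 282 in Stag2-/- siGLO, 80.7, 34.1 and 48.8 in Stag1-/- siGLO, 69.9, 40.5 and 60.9 in wild-type siStag1 and 279.9, 290.2 and 376 in Stag2-/- siStag1, so that those of both Stag2-/- conditions lay above all others. Around Fgf5 the median over 29 genes was 0.07 with 7 higher and 3 lower, around Sall2 0.042 over 106 genes and around Otx2 -0.024 over 51. Log2 fold changes above 2 were also found for Fras1, Antxr2 and Mapk10 near Fgf5 in Stag2-/- siGLO (2.72, 2.42 and 2.40) and for Bmp8b near Pou3f1 in Stag1-/- siGLO (2.14), all called. In wild-type siGLO, Antxr2 and Mapk10 had means of only 3.85 and 2.58 normalized counts, near the level of 3 counts, and Fras1 39.2. Foxd3, which was called in neither knockout without the replicate block, also had such neighbours, with Pde4b, Ror1 and Sgip1 called in Stag2-/- siGLO (2.74, 2.56 and 2.32) and a median of 0.054 over 36 genes there. Their wild-type siGLO means were 14.2, 10.3 and 3.21 normalized counts, that of Sgip1 again near the level of 3 counts. In Stag1-/- siGLO, Gm12794 near Foxd3 was called lower, with a mean of 0.981 normalized counts, under the level of 3 counts, against 40.7 in wild-type siGLO. These neighbours were named after their values were seen. In Stag1-/- siGLO the median was 0.10 over 101 genes around Pou3f1 and -0.049 over 37 around Grhl2.

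**Figure D5:**
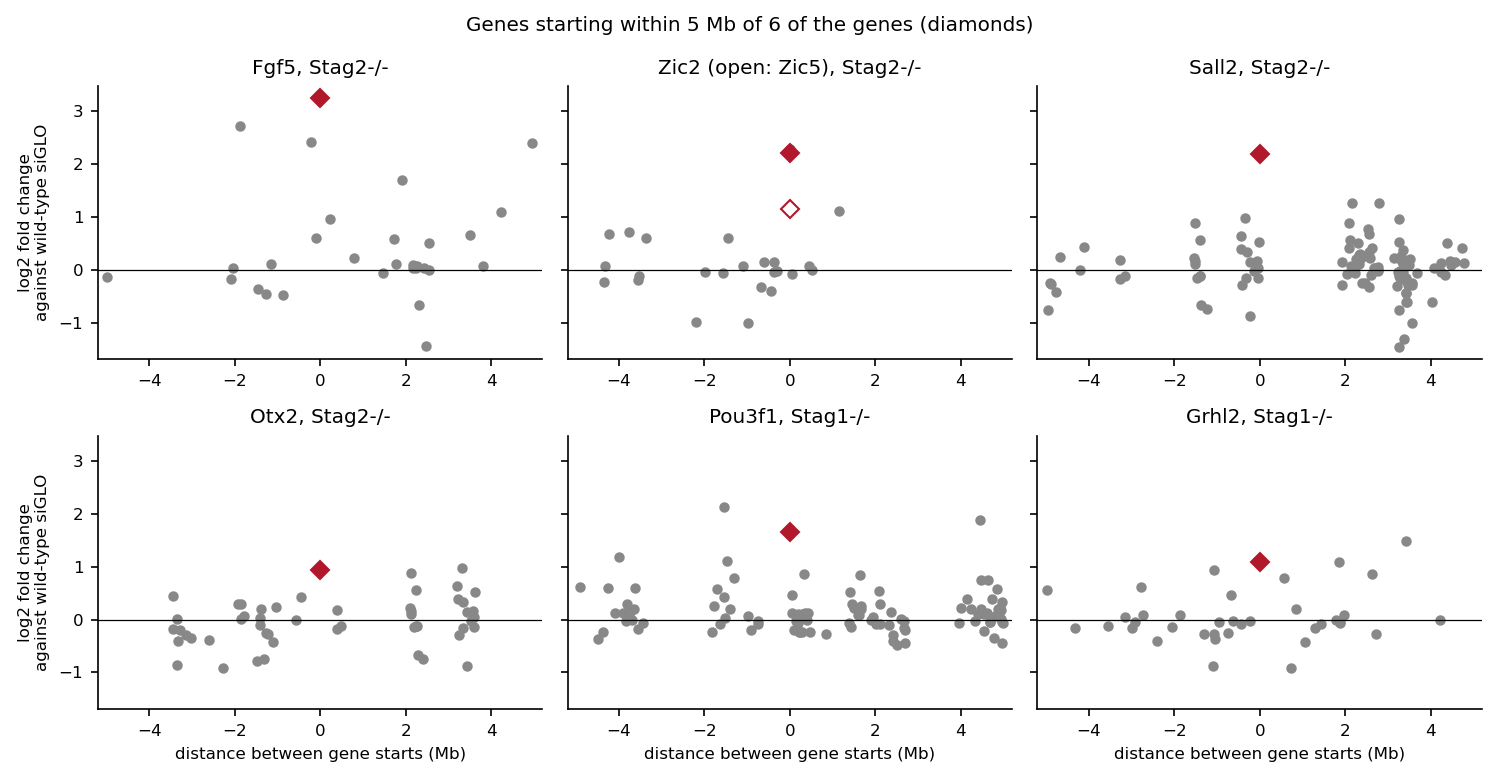
Log2 fold change against wild-type siGLO of genes starting within 5 Mb of 6 of the genes (grey points; distance between gene starts in Mb), with the gene itself as a diamond. The medians of the neighbours lie between -0.049 and 0.10, and single neighbours reach above 2: Fras1, Antxr2 and Mapk10 near Fgf5, 2610035F20Rik beside Zic2 and Bmp8b near Pou3f1. Antxr2 and Mapk10 were near the level of 3 counts in wild-type siGLO.

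Across the 15 libraries, which share conditions and replicate numbers, Zic2 and Zic5 had a Pearson r of 0.977 (on log2 normalized levels). Zic2 and Sall2 had 0.965 and Zic5 and Sall2 0.960, whereas Grhl2 had 0.085 with Zic5, 0.025 with Sall2 and -0.054 with Zic2, and 0.747 with Pou3f1. Among 11529 genes with a mean of at least 50 normalized counts, the patterns most like each gene were those of Sp8 (0.989) and Sall2 (0.976) for Fgf5, Trim21 and Enpp3 (both 0.868) for Otx2, B3gnt7 (0.977) and Nav2 (0.971) for Pou3f1, Zic5 (0.977) and Cnot6 (0.976) for Zic2, and the transcript beside Zic2, 2610035F20Rik (0.982), and Zic2 (0.977) for Zic5. For Foxd3 they were Eif4a3 (0.962) and Prpf19 (0.950), for Grhl2 G6pdx (0.956) and Msn (0.939), and for Sall2 Plch1 (0.985) and Sp8 (0.981). These are descriptions over 15 libraries, and no p is given.

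Other annotated transcripts overlap some of the genes, and whether counting used strand is not given in the sources used here. The antisense Otx2os1 shares 154 bp of exon with Otx2 and had a mean of 1.34 normalized counts. Gm49154 shares 20 of the 4569 stretches of 150 bp in Otx2. Antisense transcripts also share 330 bp with Pou3f1 (Gm2164) and 169 bp with Grhl2 (Gm16136), and Gm23366, a miRNA on the same strand, shares 89 bp with Foxd3. Reads in these stretches cannot be assigned with certainty.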

How the data were processed

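RNA-seq was analysed in 15 libraries, 3 for each of 5 conditions. The authors used STAR with the mm10 build and deposited the reads of each gene as raw counts. The counting tool, annotation and strand setting are not given in the sources used here, and DESeq2 is named in the submitters' processing notes. Summary lines of unassigned reads were left out of library sizes and tests. In R 4.3.3, edgeR 4.0.16 was run on genes kept by filterByExpr (minimum count 10 and minimum total 15, grouped by condition), with TMM scaling and a coefficient for each condition, by two-sided quasi-likelihood tests, Benjamini-Hochberg adjustment over 14508 genes and a threshold of 0.1. The SE is the log2 fold change divided by the square root of F. The test was checked on simulated data. Depth was 14982560 to 19070126 gene counts per library, and floors cover counting error only.

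Pairing rests on the replicate numbers in the labels, and shared handling is not stated. Deviations from condition means over 11529 genes had a mean correlation of 0.311 in 30 same-numbered pairs and -0.152 in 60 others. Every pair was over 0.1 in 5 comparisons, and for these a blocked value is given where the block changed a call or moved a count by over 1.5 times.

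The 8 genes and the gene lists were chosen with earlier results of these data known. From each list, at most the 2 called genes with the largest change and a mean of at least 50 normalized counts are named per comparison against wild-type siGLO, and T, Wnt3, Eomes and Col3a1 are also named beyond this where a count was 5 or fewer, after their values were seen. Alternatives were DESeq2 1.42.0, scaling by library size alone or by DESeq2 size factors, no filter, only the libraries compared, the replicate block, an adjusted p under 0.05, and each library left out. Genes were placed with GENCODE M21. Plots used Python 3.11.15 and matplotlib 3.10.9.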

Additional observations from a re-analysis of the deposited data

How the results depend on the processing

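The number of the 8 genes called stayed within 1.5 times the reported count under all alternatives run in Stag1-/- siGLO, Stag2-/- siGLO and Stag2-/- siStag1 against wild-type siGLO. In wild-type siStag1 it was 1 instead of 0 with only the libraries compared or the replicate block, and 0 to 1 with libraries left out. Between the knockouts it was 7 instead of 4 with the replicate block and 4 to 7 with libraries left out. Between Stag2-/- siStag1 and Stag2-/- siGLO it was 0 with only the libraries compared, 2 with the replicate block and 0 to 2 with libraries left out, against 1. Leaving out all libraries of a replicate number at once, included in these ranges, was chosen after seeing the data, and without replicate 1 the 3 counts were 1, 7 and 2. Without that number Pou3f1 was called in wild-type siStag1 (adjusted p = 0.0896) and between the Stag2-/- conditions (0.0845), and Otx2 (0.0604) and Foxd3 (0.0338) between the knockouts. Without number 2 or 3 Sall2 lost its call between the Stag2-/- conditions (0.406 and 0.188), without number 1 or 3 Otx2 in Stag1-/- siGLO (0.420 and 0.188), and without number 1 or 2 Grhl2 in Stag2-/- siStag1 (0.166 and 0.242). Beyond the calls named with the results, the replicate block changed no call of the 8 genes where the numbers pair the libraries. In Stag2-/- siStag1 against wild-type siGLO and in the difference of siStag1 effects the libraries share only a number (lowest correlation 0.0466 and -0.0927; 5 of 6 and 10 of 12 libraries correlated best with their own number). There the block called 8 and 0 of the 8 genes instead of 7 and 0, and all genes called went from 6364 to 7792 and from 23 to 138. Over all genes, the block moved the count from 2907 to 4443 in Stag1-/- siGLO, from 36 to 236 in wild-type siStag1 and from 924 to 2049 between the Stag2-/- conditions, and DESeq2 called 131 in wild-type siStag1 and 102 for the difference. With only the libraries compared it was 126 in wild-type siStag1, 2406 between the knockouts (3722 reported), 224 between the Stag2-/- conditions and 14 for the difference. Leaving out 1 library gave 1 to 15 in wild-type siStag1. Without wild-type siGLO replicate 2 it was 1915 in Stag1-/- siGLO and 2524 in Stag2-/- siGLO (4110 reported), and between the Stag2-/- conditions it was 1484, 535 and 416 without Stag2-/- siStag1 replicate 1, 2 or 3. For the difference it was 76 without Stag2-/- siStag1 replicate 1 and 13 to 15 without wild-type siGLO replicate 2 or 3 or any wild-type siStag1 library. Without all libraries of replicate number 2 it was 690 in Stag1-/- siGLO, 732 in Stag2-/- siGLO, 3302 in Stag2-/- siStag1, 671 between the knockouts and 100 between the Stag2-/- conditions, and without number 3 it was 1814 and 1823 in the first 2 of these and 170 in the last. Without number 1, 2 or 3 it was 65, 1 and 1 in wild-type siStag1 and 95, 0 and 1 for the difference.

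Signs turned only for log2 fold changes that were not called, and the cause was not tested. Foxd3 in Stag1-/- siGLO was 0.0065 with no filter, Pou3f1 between the knockouts 0.0073 with the block, Zic2 between the Stag2-/- conditions 0.014 with library size alone, and the Foxd3 difference of siStag1 effects -0.0068 with no filter and -0.15 with the block. With libraries left out, the ranges that crossed 0 were, in Stag1-/- siGLO, -0.093 to 0.20 for Zic5, -0.54 to 0.35 for Foxd3 and -0.31 to 0.11 for Sall2, and in wild-type siStag1 -0.35 to 0.037 for Zic2, -0.11 to 0.23 for Zic5 and -0.39 to 0.25 for Foxd3. They were -0.089 to 0.99 for Foxd3 in Stag2-/- siStag1 and -0.23 to 0.31 for Pou3f1 between the knockouts. Between the Stag2-/- conditions they were -0.24 to 0.45 for Fgf5, -0.13 to 0.16 for Otx2, -0.20 to 0.17 for Zic2, -0.81 to 0.36 for Foxd3 and -0.37 to 0.40 for Grhl2. For the difference of siStag1 effects they were -0.64 to 0.055 for Fgf5, -0.55 to 0.10 for Pou3f1, -0.045 to 0.36 for Zic2, -0.078 to 0.26 for Zic5, -0.70 to 0.48 for Foxd3 and -0.76 to 0.0077 for Grhl2. Fgf5 had the lowest level of the 8 genes in every condition, and its wild-type level is a few times that of 3 counts.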
